A study of Mus musculus with 15 samples.

Results

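Immune checkpoint genes encode the ligands and receptors that hold back T cells and macrophages. This account follows 10 of them, which are 10 of the 55359 genes of an expression matrix of mouse lung neuroendocrine cancer models. They were taken by gene name, and each name matched 1 gene. The ligands were Cd274 (PD-L1), Pdcd1lg2 (PD-L2), Pvr (CD155) and Cd47. The receptors were Pdcd1 (PD-1), Ctla4, Tigit, Havcr2 (TIM-3), Lag3 and Sirpa.

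Messenger RNA was sequenced in 15 samples, 3 in each of 5 groups. 46LCNEC_cell was an adherent line from a large cell neuroendocrine carcinoma (LCNEC) of the lung, and 57SCLC_cell was a line growing in suspension from a small cell lung carcinoma (SCLC). Both tumors arose in QKO mice, whose engineered alleles include floxed Rb1 and Trp53 and a null Rbl1 gene, after adenoviral Cre under the CMV promoter (46LCNEC) or the K5 promoter (57SCLC). 46LCNEC_allo and 57SCLC_allo were tumors of the same lines under the skin of immunocompetent QKO mice, so they also held host cells. Lung was normal lung of littermates of those recipients. The age of the mice was not given in the sources used here. Each type of carcinoma is represented by 1 line, cultured as 3 dishes or flasks. Hence p-values between the cultures measure only the spread between vessels of a line. Those of a culture against tumors or Lung pool that spread with the spread between tumors or lungs. None measures the spread between lines of a carcinoma type.

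PD-L1 and PD-L2 bind PD-1 on activated T cells and dampen signaling from the T cell receptor. PD-L1 is inducible, and interferon gamma, acting through its receptor chains, the kinases JAK1 and JAK2 and the factor IRF1, is its best known inducer. CTLA-4 competes with CD28 for the same ligands, TIGIT competes with CD226 for CD155, and TIM-3 and LAG-3 are further inhibitory receptors of T cells, although TIM-3 is also carried by myeloid cells. SIRP alpha on macrophages reads CD47 on other cells as a signal against engulfment. High-grade neuroendocrine lung carcinomas are treated with antibodies against PD-1 or PD-L1, and the SCLC type is known for low expression of antigen presentation genes.

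Reads counted per sample ranged from 9480244 (57SCLC_allo tumor 275) to 44876572 (57SCLC_cell flask C). Levels are counts divided by a size factor for each sample, called normalized counts below, and are compared for 1 gene across samples. The cultures were close to free of leukocyte RNA: Ptprc (CD45, on all leukocytes) was at 0.769 to 5.63 in 46LCNEC_cell and 0 to 0.521 in 57SCLC_cell, and Cd3e, a chain of the T cell receptor complex, was at 0 in all 6. Neuroendocrine genes separated the lines. The summed level of 5 such genes was 34315 to 57551 in the 57SCLC samples and 16.9 to 45.4 in the 46LCNEC samples, below the 183 to 207 of Lung. Chga averaged 4.23 in 46LCNEC_cell and 6.54 in Lung, so RNA of these markers was at or near background in 46LCNEC. At the protein level, the paper reports NCAM staining in LCNEC cells and chromogranin A staining in LCNEC tumors under the skin. Runx2 marked the 46LCNEC line at 5802 to 6502. Tumor 321 of 46LCNEC_allo stood apart. Its 10 T cell genes summed to 2127, against 175 in tumor 312 and 102 in tumor 319, and results that rest on it are given with and without it. In bulk tissue, fewer cells of a type and less RNA per cell cannot be told apart. Foxp3 and B2m were listed at 0 in all 15 samples. As B2m is used by nearly every cell, a gene listed at 0 throughout this matrix cannot be read as silent.

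A gene was called where limma on log2(normalized count + 1) gave p, adjusted by Benjamini-Hochberg over all genes tested, no greater than 0.01 and a change of at least 2-fold, and "rose", "fell", "higher" and "lower" with a p refer to this test. Fold changes are differences on that log2 scale, which understates the change of genes with few reads.

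Sequence upstream of the start site is shown for the neighboring PD-1 ligand genes Cd274 and Pdcd1lg2 and for Pvr and Havcr2, the genes of the 10 with the largest differences tested between the lines. In each line, the 250 bases before the start of the canonical transcript are printed 5′ to 3′ on the strand of the gene, from GRCm39. The Cd274 window is chr19:29344279-29344528 (plus strand, in an intron of Plgrkt, a gene on the opposite strand), that of Pdcd1lg2 is chr19:29388069-29388318 (plus), that of Havcr2 is chr11:46345423-46345672 (plus) and that of Pvr is chr7:19655086-19655335 (minus, within the non-coding Gm16251). Capitals mark a match to 1 of the motifs searched.
Cd274: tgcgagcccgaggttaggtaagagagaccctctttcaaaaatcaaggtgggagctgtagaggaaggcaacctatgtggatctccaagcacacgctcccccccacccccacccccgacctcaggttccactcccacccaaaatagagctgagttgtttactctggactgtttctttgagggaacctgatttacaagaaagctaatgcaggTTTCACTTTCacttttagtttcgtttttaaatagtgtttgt
Pdcd1lg2: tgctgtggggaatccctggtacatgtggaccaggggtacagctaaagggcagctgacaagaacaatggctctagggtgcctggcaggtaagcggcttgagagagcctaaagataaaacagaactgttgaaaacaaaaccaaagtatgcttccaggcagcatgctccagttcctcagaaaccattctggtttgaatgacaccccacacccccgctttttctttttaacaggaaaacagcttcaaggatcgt
Havcr2: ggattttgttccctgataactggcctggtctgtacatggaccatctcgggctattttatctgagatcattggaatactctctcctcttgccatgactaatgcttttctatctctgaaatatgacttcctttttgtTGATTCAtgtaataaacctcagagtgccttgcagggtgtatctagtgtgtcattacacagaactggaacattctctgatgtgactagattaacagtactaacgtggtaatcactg
Pvr: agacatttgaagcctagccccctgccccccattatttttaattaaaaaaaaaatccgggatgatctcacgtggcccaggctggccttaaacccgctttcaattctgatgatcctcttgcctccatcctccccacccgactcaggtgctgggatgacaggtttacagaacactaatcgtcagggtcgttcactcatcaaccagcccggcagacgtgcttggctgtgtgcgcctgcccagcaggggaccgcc
The capitals in Cd274, TTTCACTTTC, match the core of the interferon-stimulated response element (ISRE) on the opposite strand and begin 41 bases before the start. Those in Havcr2 match the AP-1 motif TGANTCA and begin 115 bases before the start. Also searched were the GAS element TTCNNNGAA and the RUNX core TGTGGT, each on both strands. Across the 10 genes, 1 window held the ISRE core (Cd274), 1 held AP-1 (Havcr2), 1 held the RUNX core (Tigit) and 0 held GAS. Of 21770 windows of the same length, each before the canonical transcript of a protein-coding gene, 3.32% held the ISRE core, 6.17% AP-1 and 7.70% GAS. The RUNX core was held by 2835 windows. ISRE and GAS matches may overlap. A match in letters is a description and not a bound site.

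Cd274, the gene for PD-L1 (chr19:29344529-29365495, plus strand), was low in both cultures and higher in the SCLC tumors. Its normalized counts were 61.0, 69.5 and 62.3 in 46LCNEC_cell and 45.8, 27.1 and 40.1 in 57SCLC_cell. In the tumors they were 63.6, 59.99 and 369 in 46LCNEC_allo (312, 319 and 321) and 541, 290.2 and 415 in 57SCLC_allo (275, 316 and 317). Lung held the most, with 969, 993 and 1259.6. All 57SCLC tumors were thus above all 57SCLC cultures, whereas among the 46LCNEC tumors only 321 was above the range of its line. Cd274 rose from 57SCLC_cell to 57SCLC_allo by 3.41 ± 0.28 (log2, SE, adjusted p = 3.27e-05). From 46LCNEC_cell to 46LCNEC_allo the difference was 0.80 ± 0.67 (adjusted p = 0.343), and without tumor 321 it was -0.05. Between the tumors it was 1.83 ± 0.71 toward 57SCLC_allo (adjusted p = 0.0646) with all 6 samples and 2.68 ± 0.30 (adjusted p = 0.000788) without tumor 321. Against Lung, Cd274 was lower in 57SCLC_allo (-1.40 ± 0.22, adjusted p = 0.000674), in 46LCNEC_cell (-4.03 ± 0.14) and in 57SCLC_cell (-4.82 ± 0.22). It was also lower in 46LCNEC_allo (-3.23 ± 0.69, adjusted p = 0.00632), but that call was lost when any 1 of CT3, CT4, CT5, 312 or 319 was left out (adjusted p between 0.0173 and 0.0279) and with edgeR (adjusted p = 0.0181). Exons of Cd274 overlap Plgrkt by 219 bases and the non-coding Gm36043 by 581 bases on the opposite strand, and the strand setting of the counting was not given in the sources used here, so reads there cannot be assigned to a strand.

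Pdcd1lg2, the gene for PD-L2 (chr19:29388319-29448882, plus), next to Cd274, was almost absent from the cultures. It had 2 reads in all over 46LCNEC_cell and 6 over 57SCLC_cell. Normalized counts per sample were 1.32, 1.05 and 25.4 in 46LCNEC_allo, 64.6, 11.32 and 10.2 in 57SCLC_allo and 44.1, 53.9 and 52.7 in Lung. Within each tumor type 1 tumor was well above the others, 321 and 275. Pooled over the group, 57SCLC_allo had 19.8 times the level of 57SCLC_cell (95% counting interval 8.40 to 56.8), and the log2 difference was 3.33 ± 0.69 (adjusted p = 0.00570). This call was lost when flask A, B or C or tumor 316 was left out (adjusted p 0.0116 to 0.0237). Pdcd1lg2 passed the minimum for the test (10 normalized counts in 3 samples) through the tumors alone, so the test adds nothing to the counts. In 46LCNEC_allo the pooled level was 15.7 times that of 46LCNEC_cell (3.91 to 137), of which 23 of 25 reads came from tumor 321.

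**Figure D1:**
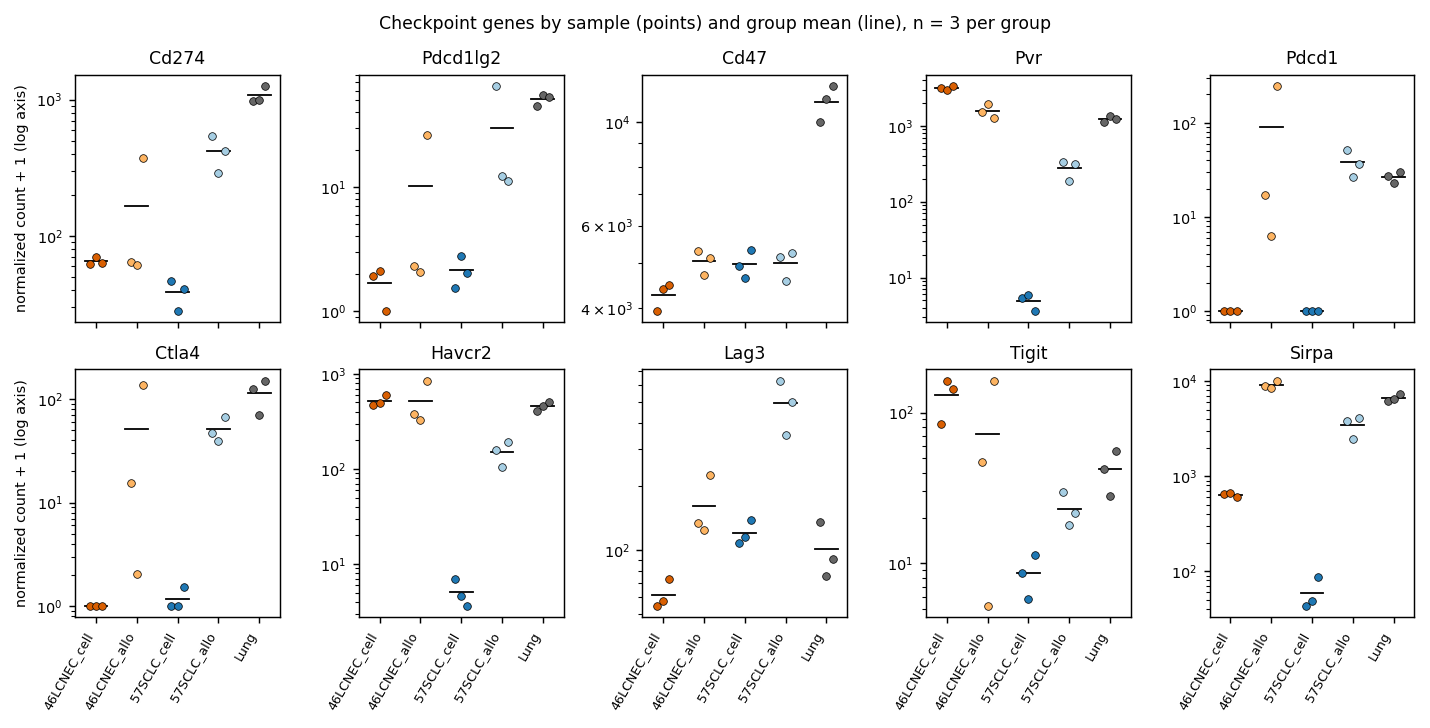
Normalized count + 1 (log axis) of the 10 genes in every sample, with 3 points per group and a line at the group mean. Cd47 is highest in Lung, Pvr and Havcr2 are lowest in 57SCLC_cell, and 1 of the 3 46LCNEC_allo points, tumor 321, lies far above the others for Cd274, Pdcd1lg2, Pdcd1 and Ctla4.

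Genes that act upstream of PD-L1 were compared in the same way. Of 13 genes linked to PD-L1 or CD47 regulation, 12 were tested between the cultures, and 2 were higher and 5 lower in 57SCLC_cell. That is 58.3% of them, against 46.1% of all genes. Jak1, the kinase shared by the interferon receptors, had normalized counts of 3592, 3481 and 3447 in 46LCNEC_cell and 36.5, 18.1 and 35.4 in 57SCLC_cell. No sample of the SCLC line came near the LCNEC line, and the difference was -6.89 ± 0.25 (adjusted p = 1.04e-07). The chains of the interferon gamma receptor, Ifngr1 (-2.65) and Ifngr2 (-2.86), the factors Irf1 (-1.37) and Stat3 (-1.28) were lower too, while Cmtm4 (2.41), whose product stabilizes PD-L1, and the phosphatase gene Ptpn6 (2.40) were higher. From culture to tumor, 4 of 12 rose in 57SCLC_allo, namely Jak1 (4.65 ± 0.31), Ifngr2 (1.62), Irf1 (1.59) and Ifngr1 (1.44), and 0 fell, where 14.4% of all genes rose. Jak1 was at 886, 548 and 839.7 in these tumors, between the culture and Lung (4733 to 5139.5). In 46LCNEC_allo 2 of 12 rose, Irf1 (1.97) and Ptpn6 (2.59), with the same share of 14.4% among all genes. Irf1 was at 2901, 2569 and 4823 in tumors 312, 319 and 321, so tumor 321 was highest, as it was for Cd274. Ifng itself was at 0 in tumors 312 and 319, at 16.6 in tumor 321 and at 0 in both cultures. It averaged 3.67 in 57SCLC_allo and 10.4 in Lung. A link of Ifng or Irf1 to the Cd274 level of tumor 321 was not tested. Nor was the part of host cells in the Jak1 and Irf1 levels of the tumors. Compared with Lung, 0 of 12 were higher and 7 lower in 57SCLC_allo, including Jak1 (-2.74) and Irf1 (-2.17), where 45.8% of all genes were called. In 46LCNEC_allo against Lung, where 35.6% were called, 0 of 13 were higher and 2 lower, Cmtm6 (-1.50) and Cmtm4 (-1.03).

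**Figure D2:**
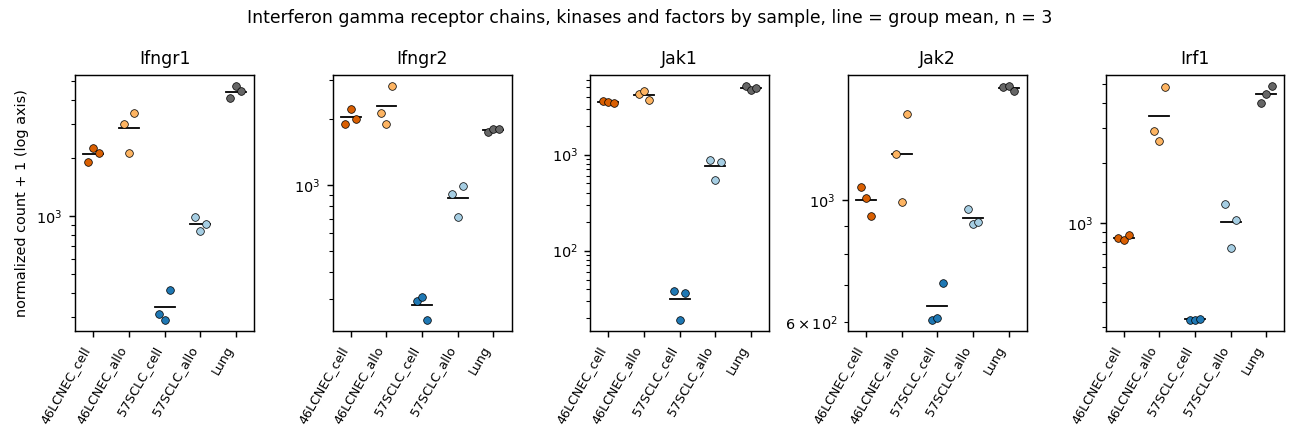
Normalized count + 1 (log axis) of 5 genes of the interferon gamma axis in every sample, 3 points per group with a line at the mean. Jak1 lies between 18.1 and 36.5 in 57SCLC_cell and between 3447 and 5139.5 in every 46LCNEC and Lung sample.

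Pdcd1, the gene for PD-1 (chr1:93966027-93980312, minus), had 0 reads in all 6 culture samples. Its normalized counts were 15.9, 5.26 and 246 in 46LCNEC_allo, 50.3, 25.5 and 35.2 in 57SCLC_allo and 26.2, 21.9 and 29.3 in Lung. Every tumor was above every culture, and tumor 321 was above all other samples. Taking 3 reads over the group as the limit for a count of 0, 57SCLC_allo was at least 63.0-fold and 46LCNEC_allo at least 99.9-fold higher than its line. Of the 239 reads in 46LCNEC_allo 222 came from tumor 321, and without it the bound was 10.9-fold. In 46LCNEC_allo Pdcd1 did not reach the minimum for the test (10 normalized counts in 3 samples), and in 57SCLC_allo it passed that minimum through the tumors alone, so its test adds nothing to these values. Neither tumor type was called against Lung (0.16 ± 1.27 and 0.46 ± 0.33, adjusted p = 0.922 and 0.236), and without tumor 321 the first value was -1.37.

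Ctla4 (chr1:60926159-60954991, plus) was likewise close to absent from the cultures, and its highest mean was in Lung. It had 0 reads in 46LCNEC_cell and 1 read in 57SCLC_cell. Normalized counts per sample were 14.6, 1.05 and 135 in 46LCNEC_allo, 45.5, 38.2 and 65.8 in 57SCLC_allo and 125, 68.8 and 149 in Lung. The SCLC tumors lay below every Lung sample, and the LCNEC tumors overlapped both. The pooled ratio of 57SCLC_allo to 57SCLC_cell was 281 (95% counting interval 49.3 to 11188). Against Lung, 57SCLC_allo was at -1.14 ± 0.35 (adjusted p = 0.0191) and 46LCNEC_allo at -2.75 ± 1.41 (adjusted p = 0.133). Without tumor 321 the latter was -4.28 (adjusted p = 0.00757), and without CT4 the former was -1.47 (adjusted p = 0.00644).

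Pvr, the gene for CD155 (chr7:19637503-19655085, minus), had the largest difference between the lines of the 10 genes. Its normalized counts were 3179, 2974 and 3365 in 46LCNEC_cell and 4.36, 4.82 and 2.61 in 57SCLC_cell. The SCLC line held 8, 8 and 5 reads, against 2695 to 4377 in the LCNEC line, and the difference was -9.36 ± 0.21 (adjusted p = 1.07e-08). Being under 10 in every 57SCLC_cell sample, Pvr entered tests against that culture through the other group alone. Their p-values add nothing to the counts. In tumors the levels were 1523, 1952 and 1269 in 46LCNEC_allo and 328, 184 and 312 in 57SCLC_allo, with 1123, 1347 and 1246 in Lung. Pvr thus moved in opposite directions from culture to tumor. It rose by 5.79 ± 0.32 (log2) in 57SCLC (adjusted p = 3.47e-06) and fell by 1.02 on the log2 scale in 46LCNEC (SE 0.16, adjusted p = 0.00177). That fall lay at the 2-fold limit and was no longer called without dish A (-1.02), dish C (-0.98) or tumor 321 (-0.88), or with edgeR (-0.99) and DESeq2 (-0.999). Between the tumors it stayed lower in 57SCLC_allo (-2.54 ± 0.27, adjusted p = 0.000304). Stromal markers moved with Pvr in the SCLC tumors. The 4 fibroblast genes summed to 23.5 to 30.002 in 57SCLC_cell and 24517 to 37970 in 57SCLC_allo, and the 46LCNEC culture also had 35313 to 38256. In the 46LCNEC tumors, where Pvr was lower than in culture, these genes summed to more, 273793 to 589591. The part of host cells in the Pvr level of the SCLC tumors was not tested.

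Tigit, the receptor for CD155 (chr16:43469100-43484509, minus), was measured in the LCNEC culture itself, where the 10 T cell genes summed to 37.5 to 46.9. Normalized counts per sample were 83.5, 161 and 143 in 46LCNEC_cell (89, 146 and 186 reads) and 7.64, 4.82 and 10.4 in 57SCLC_cell. The LCNEC line was above the SCLC line in every sample (57SCLC_cell against 46LCNEC_cell, -3.92 ± 0.34, adjusted p = 1.66e-05) and above Lung (41.1, 26.9 and 55.0), by 1.63 ± 0.33 (adjusted p = 0.00138). This excess over Lung was not called when all 15 samples shared a model (adjusted p = 0.0983), and the same held for the lower level of 57SCLC_cell against Lung (-2.28 ± 0.36, adjusted p = 0.000578, against 0.0271). The tumors were at 46.4, 4.21 and 162 in 46LCNEC_allo and 28.7, 17.0 and 20.4 in 57SCLC_allo. Tumor 319 held 4 reads, fewer than any dish of the line. The differences between culture and tumor were -1.87 ± 1.12 (adjusted p = 0.196) in 46LCNEC and 1.44 ± 0.37 (adjusted p = 0.0153) in 57SCLC.

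Havcr2, the gene for TIM-3 (chr11:46345673-46374149, plus), was abundant in the LCNEC culture, at levels that overlapped those of lung tissue. Its normalized counts were 467, 490.03 and 599.7 in 46LCNEC_cell, 375, 322 and 844 in 46LCNEC_allo, and 405, 459.8 and 507 in Lung. These 3 groups overlapped, and the difference of 46LCNEC_cell from Lung was 0.18 ± 0.13 (adjusted p = 0.226). The SCLC line had 6.0005, 3.62 and 2.61, from 11, 6 and 5 reads, and differed from the LCNEC line by -6.73 ± 0.27 (adjusted p = 1.90e-07). As Havcr2 was under 10 in every 57SCLC_cell sample, it entered tests against that culture through the other group alone. The p-values of those tests add nothing to the counts. In 57SCLC_allo Havcr2 reached 156, 105 and 189.5, a rise of 4.91 ± 0.35 (adjusted p = 1.39e-05), and stayed below Lung (-1.64 ± 0.23, adjusted p = 0.000315). Against 46LCNEC_allo it was at -1.67 ± 0.41 (adjusted p = 0.0125), a difference that DESeq2 called (adjusted p = 0.000239). Macrophage genes moved with it in the SCLC model: 8 of them summed to 292 to 324 in culture and 16122 to 33956 in the tumors, and 7 of the 8 had over 3 reads in every tumor, the exception being Itgam, which was listed at 0 in all 15 samples. In 46LCNEC the same genes summed to 331 to 385 in culture and 35758 to 75511 in the tumors. Havcr2 was not called there (-0.14 ± 0.35, adjusted p = 0.753). The part of macrophages in the Havcr2 level was not tested. In the LCNEC culture, the macrophage markers Csf1r and Adgre1 averaged 34.7 and 0.736. The lysosomal Cd68 averaged 320.4, and the complement genes C1qb and C1qc were at 0.

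Lag3 (chr6:124881320-124888765, minus) was the only gene of the 10 whose highest mean was in the SCLC tumors. Normalized counts per sample were 107, 115 and 138 in 57SCLC_cell and 629.6, 349.7 and 497 in 57SCLC_allo. The LCNEC line had 53.5, 56.3 and 72.3 in 46LCNEC_cell and 134, 124 and 226 in 46LCNEC_allo, so that each sample was below every SCLC sample of the same setting. Lung had 135, 74.8 and 90.1. Each 57SCLC tumor was above each sample of every other group, and the SCLC culture overlapped Lung. No Cd3e read was found in that culture, in which the 10 T cell genes summed to 76.0 to 109.9, against 467 to 682 in 57SCLC_allo. The part of T cells in the Lag3 level was not tested. Lag3 rose by 1.99 ± 0.22 (log2) from 57SCLC_cell to 57SCLC_allo (adjusted p = 0.000195) and was higher in 57SCLC_allo than in Lung (2.29 ± 0.29, adjusted p = 0.000166). It was also called higher in 57SCLC_allo than in 46LCNEC_allo (1.62 ± 0.32, adjusted p = 0.00480) and in 46LCNEC_allo than in 46LCNEC_cell (1.35 ± 0.29, adjusted p = 0.00694). The first of these calls was lost without 275, 317, 312 or 319 (adjusted p 0.0135 to 0.0236), and the second without any 1 of dishes A, B and C or tumors 312 and 321 (adjusted p 0.0102 to 0.0323). Between the cultures the difference was 0.98 ± 0.19 (adjusted p = 0.00190), just under the 2-fold limit, and it passed the limit when scaled by library size alone (1.208) or without flask A, flask B or dish C (1.01 to 1.11).

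Cd47 (chr16:49620896-49735373, plus), which marks cells as self to macrophages, was the most even of the 10 genes. Its normalized counts were 3932, 4382 and 4482 in 46LCNEC_cell, 5305, 4711 and 5109 in 46LCNEC_allo, 4907, 4628 and 5330.4 in 57SCLC_cell, and 5144, 4553 and 5242 in 57SCLC_allo. Lung stood apart at 10028, 11180.1 and 11960.1. In the comparisons among the 4 tumor-derived groups, the log2 differences were between -0.02 and 0.24, and none was called. All 4 groups were lower than Lung, by 1.13 to 1.37 on the log2 scale (adjusted p at most 0.000183). These differences lie close to the 2-fold limit. Scaled by library size alone, 57SCLC_allo (-0.94) and 57SCLC_cell (-0.93) fell short of it, as did 57SCLC_cell with upper quartile scaling (-0.98). Exons of Cd47 overlap 2 non-coding genes on the opposite strand by 378 and 89 bases.

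Sirpa, the receptor for CD47 (chr2:129434039-129474148, plus), rose in both models. Normalized counts per sample were 650.2, 661 and 604 in 46LCNEC_cell and 8881, 8502 and 10077 in 46LCNEC_allo. In the other model they were 42.0, 47.6 and 85.5 in 57SCLC_cell and 3779.8, 2477 and 4133 in 57SCLC_allo, and Lung had 6232, 6519 and 7244. None of the 5 groups overlapped its neighbor in the order, with 46LCNEC_allo highest and 57SCLC_cell lowest. The rise was 3.84 ± 0.10 (adjusted p = 3.05e-06) in 46LCNEC and 5.90 ± 0.29 (adjusted p = 1.78e-06) in 57SCLC. Sirpa was lower in the SCLC than in the LCNEC line (-3.50 ± 0.25, adjusted p = 5.37e-06) and tumor (-1.43 ± 0.20, adjusted p = 0.00109). Macrophage genes summed to 331 to 385 in 46LCNEC_cell and 35758 to 75511 in 46LCNEC_allo, against 10818 to 12195 in Lung. Their part in the Sirpa level was not tested.

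Over the 10 genes, the comparisons can be read against the share of all tested genes called. Between the cultures 7 of the 10 genes had enough reads, and 0 were higher and 4 lower in 57SCLC_cell (Pvr, Havcr2, Tigit, Sirpa). Of all genes 46.1% were called there, with 23.9% higher and 22.2% lower. Pvr and Havcr2 were under 10 in every 57SCLC_cell sample and entered the test through 46LCNEC_cell alone, so they had to differ. Between the tumors, 1 of 10 was higher in 57SCLC_allo (Lag3) and 2 lower (Pvr, Sirpa), against 30.4% of all genes called (16.1% higher, 14.2% lower). Scaled by library size, the share of higher genes among all calls of that comparison went from 53.1% to 64.5%. From culture to tumor, 2 of 7 tested genes rose (Sirpa, Lag3) and 1 fell (Pvr) in 46LCNEC, with 22.8% of all genes called (14.4% higher, 8.45% lower). In 57SCLC 8 of 10 rose and 0 fell, with 16.6% of all genes called (14.4% higher, 2.29% lower). Of these 8 genes, 5 (Pdcd1lg2, Pvr, Pdcd1, Ctla4 and Havcr2) were under 10 in every culture sample, passed the filter through the tumors alone and had to differ, so the count of 8 is not read against the share of all genes. The other 3 were Cd274, Lag3 and Sirpa, and Tigit and Cd47 were not called.

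**Figure D3:**
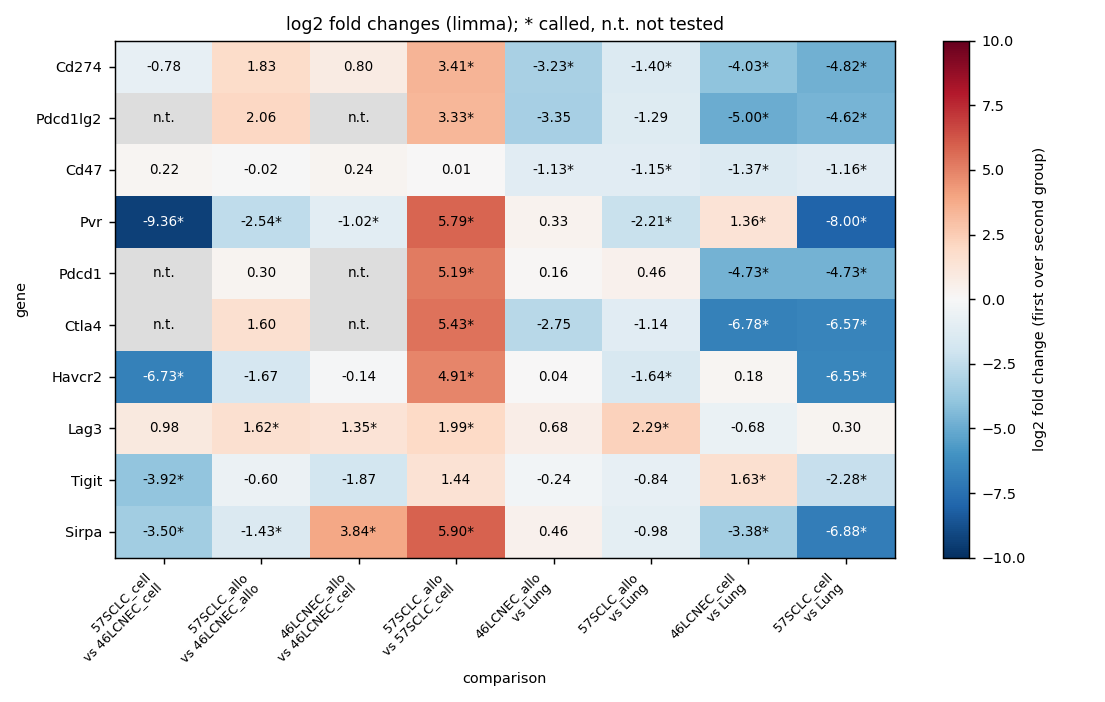
log2 fold changes of the 10 genes (rows) in 8 comparisons (columns), first group over second, with the color from -10 to 10, an asterisk for called genes and n.t. for genes with too few reads to test. The 57SCLC_allo against 57SCLC_cell column holds 8 called rises, up to 5.90 for Sirpa, and the deepest value is -9.36 for Pvr between the cultures.

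Compared with Lung, 46LCNEC_allo had 0 higher and 2 lower (Cd274, Cd47), where 35.6% of all genes were called (13.4% higher, 22.1% lower). 57SCLC_allo had 1 higher (Lag3) and 4 lower (Cd274, Cd47, Pvr, Havcr2), where 45.8% were called (18.9% higher, 26.9% lower). For the cultures, which hold a single cell type while lung holds many, 46LCNEC_cell had 2 higher (Pvr, Tigit) and 6 lower, and 57SCLC_cell 0 higher and 9 lower, with 55.6% (20.6% higher, 35% lower) and 53.8% (21.1% higher, 32.7% lower) of all genes called. Of the lower genes, 3 in 46LCNEC_cell and 5 in 57SCLC_cell were under 10 in every culture sample and entered through Lung alone. Lag3 was the 1 gene not lower in 57SCLC_cell (0.30 ± 0.25, adjusted p = 0.290). The comparisons of tumors and cultures with Lung share the 3 Lung samples.

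The change from culture to tumor differed between the lines for 3 of the 10 genes, where 17.5% of all genes were called (10.8% higher, 6.78% lower). The difference of the changes, positive where the change was greater in 57SCLC, was 6.81 ± 0.36 for Pvr (adjusted p = 7.68e-08), 5.05 ± 0.53 for Havcr2 (adjusted p = 2.07e-05) and 2.07 ± 0.34 for Sirpa (adjusted p = 0.000672). All 3 were nearly absent or lowest in 57SCLC_cell. Pvr and Havcr2 were under 10 in every 57SCLC_cell sample and passed the filter through the other groups alone. Their change in 57SCLC thus starts at the floor, its size depends on the pseudocount, and their p-values add nothing to the counts. The count of 3 is therefore not read against the share of all genes. Cd274 had a difference of 2.61 ± 0.79 (adjusted p = 0.0223), which without tumor 321 became 3.47 ± 0.39 (adjusted p = 5.02e-05). Tigit was at 3.31 ± 1.30 (adjusted p = 0.0636) and at 4.44 (adjusted p = 0.00448) without that tumor.

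As tumors and lung hold different amounts of immune RNA, each receptor was also set against marker genes of the cells that carry it, as a description with no test. The 10 T cell genes summed to 467 to 682 in 57SCLC_allo and 3824 to 4401 in Lung. On the log2 scale, Pdcd1 was at -3.70 ± 0.27 (SD, n = 3) from the mean of the T cell genes in Lung, -0.04 ± 0.22 from it in 57SCLC_allo and 0.41 ± 0.29 in 46LCNEC_allo. The 3 values of each tumor type, including tumor 321 (0.46), were above the highest of Lung. Only 4 of the 10 T cell genes had over 3 reads in every 46LCNEC tumor, so that the reference is at its floor in 312 and 319. Against Ptprc alone, tumor 319 (-7.17) lay within the range of Lung (-7.28 to -6.91). Tigit showed the same order of tumors over Lung, with 0.62 ± 1.34 in 46LCNEC_allo, -0.74 ± 0.13 in 57SCLC_allo and -3.10 ± 0.56 in Lung. Lag3 was at 2.81 ± 2.17, 3.67 ± 0.17 and -1.82 ± 0.36, and Havcr2 at 4.39 ± 1.89, 1.96 ± 0.31 and 0.40 ± 0.28. Against the macrophage genes Havcr2 was instead highest in Lung, with -1.85 ± 0.46 in 46LCNEC_allo, -2.49 ± 0.23 in 57SCLC_allo and -0.27 ± 0.08 in Lung. These 3 receptors also had RNA in the cultures, so the T cell genes are not their only reference. Ctla4 was at -0.45 ± 1.04, 0.40 ± 0.38 and -1.66 ± 0.61, with the LCNEC tumors overlapping Lung. Sirpa, set against the macrophage genes, was lower in tumors (2.43 ± 0.21 and 2.04 ± 0.16) than in Lung (3.597 ± 0.04). Set against Ptprc alone, the sign of tumor minus Lung turned for Sirpa in both tumor types and for Ctla4 in 46LCNEC_allo.

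**Figure D4:**
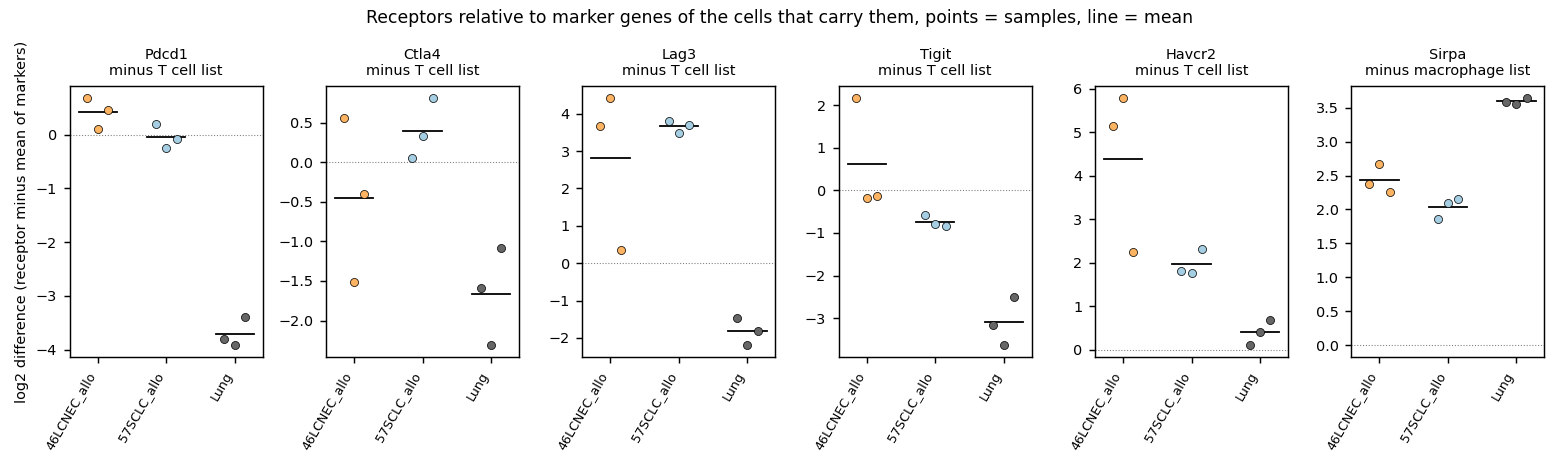
log2 level of 6 receptors minus the mean log2 level of their marker genes in the allografts and Lung, with 3 points per group and a line at the mean, and separate vertical axes. Pdcd1 lies between -3.91 and -3.40 in Lung and between -0.24 and 0.68 in the tumors, and Sirpa relative to macrophage genes is highest in Lung.

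Per length of exon, as RPKM, the reads per kilobase scaled to library size, Cd47 was first of the 10 genes in 57SCLC_cell (24.7 ± 1.29), 57SCLC_allo (24.5 ± 2.36) and Lung (47.0 ± 3.25). Pvr was first in 46LCNEC_cell (19.0 ± 0.99), next to Cd47 (18.1 ± 1.08), a gap smaller than either SD. Sirpa was first in 46LCNEC_allo (47.1 ± 5.98). In the cultures, Lag3 came next after Cd47 in the SCLC line at 2.36 ± 0.27, and Tigit (4.59 ± 1.43) and Havcr2 (3.96 ± 0.48) came next after Pvr and Cd47 in the LCNEC line. Cd274 reached 9.80 ± 1.24 in Lung, 4.41 ± 1.43 in 57SCLC_allo and 0.40 ± 0.10 in 57SCLC_cell.

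The genes most like each member across the 15 samples, by Pearson correlation of log2 levels, are a description, since samples of a group share their origin and group differences dominate. For Pvr they were S100a11 (r = 0.996) and the hyaluronan receptor gene Cd44 (0.995). Sirpa was closest to Cyth4 (0.998), Slc7a7 (0.993) and Pde1b (0.992), and Ctla4 to the immunoglobulin gene Igha (0.985), the T cell co-receptor gene Cd8a (0.976) and Slfn1 (0.975). For Pdcd1 the closest were Slamf8 (0.973), the interferon gamma-inducible chemokine gene Cxcl9 (0.968) and Penk (0.960). Cd274 was closest to the immunoglobulin light chain gene Iglc2 (0.972), Ms4a8a (0.969) and the lymphocyte adhesion gene Cd2 (0.965), and Pdcd1lg2 to Igkv3-4, Iglc2 and Ms4a8a (0.965 to 0.973). Cd47 was closest to Herpud1, Fcho2 and Cyp2f2 (0.982 to 0.984), and Havcr2 to Stambpl1, Il33 and Peli2 (0.990 to 0.990). Lag3, by contrast, was closest to the potassium channel gene Kcnq3 (0.952), Slc43a1 (0.926) and the cadherin gene Cdh23 (0.908), and Tigit to Aup1, Slc2a6 and Katna1 (0.892 to 0.911). Among the 10 genes themselves, Pvr and Havcr2 had the highest correlation (r = 0.980), followed by Cd274 and Pdcd1lg2 (0.946).

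A wider list of 40 checkpoint genes gives the setting, of which 5 were listed at 0 in all samples. Between the cultures, 5 of 20 tested were higher and 6 lower in 57SCLC_cell (55%, against 46.1% of all genes). Siglecg, a receptor for CD24, averaged 146 in 46LCNEC_cell and had 0 reads in 57SCLC_cell. Large differences were also seen in Thbs1 (-6.87), whose product binds CD47, in Lgals3 (-6.40), a galectin that binds LAG-3, and in Icosl (4.15), the ligand of ICOS. From culture to tumor, 10 of 24 rose and 3 fell in 46LCNEC (54.2%, with 22.8% of all genes called), led by Cd86 (8.39, a value set by the pseudocount since the culture had 0 reads), a ligand of CD28 and CTLA-4, Entpd1 (7.15), which degrades extracellular ATP, and Cd200 (6.31). In 57SCLC 14 of 26 rose and 1 fell (57.7%, with 16.6% of all genes called), led by Entpd1 (7.49), Cd200r1 (6.19), Cd86 (6.18) and Lgals3 (6.04). Of the genes that rose, Btla, Cd28, Icos, Cd244a, Cd200r1, Cd86, Siglecg and Entpd1 were under 10 in every 57SCLC_cell sample. In 46LCNEC_cell the same held for Btla, Cd244a, Cd200r1, Cd86 and Entpd1. These genes too entered the test through the tumors alone and had to differ. The counts from culture to tumor are therefore not read against the shares of all genes. Between the tumors, 4 of 28 were higher and 6 lower in 57SCLC_allo (35.7%, against 30.4%), with Cd24a (4.50), a signal against engulfment, highest and Nt5e (-3.76), which makes adenosine, lowest. Against Lung, 2 of 31 were higher and 10 lower in 46LCNEC_allo (38.7%, against 35.6%), and 4 of 32 higher and 18 lower in 57SCLC_allo (68.8%, against 45.8%). Here too some genes entered through 1 group alone. Klrc1, Vtcn1 and Ido1 were under 10 in every 57SCLC_allo sample, and Tnfrsf9 in every 46LCNEC_allo sample. Siglecg and Vtcn1 were under 10 in every 57SCLC_cell sample, and Tnfrsf9 in every 46LCNEC_cell sample. The counts between the cultures, between the tumors and against Lung are therefore not read against the shares either. Cd276 (B7-H3), an inhibitory ligand of the same family as PD-L1, was higher in 46LCNEC_allo than in Lung (3.48 ± 0.17, adjusted p = 1.60e-05). It had normalized counts of 5559, 7288 and 4677 in those tumors, 3459, 3185 and 3318 in their culture and 496, 493 and 556 in Lung, so that Lung was lowest for Cd276 and highest for Cd274.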

How the data were processed

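Per the paper's methods, the authors selected poly-A RNA, sequenced paired ends, used Rbowtie2 for alignment to GRCm39 and featureCounts with GENCODE genes for counting, and ran DESeq2, which the submitters' processing notes also name. The deposited matrix holds normalized count values (a signal): each sample's values are whole multiples of 1 step, as counts divided by a size factor are, although no source used here describes the matrix in those words. Whole reads were recovered by dividing by each sample's step (100% of values whole, tolerance 0.02), and a count of 0 was read against 3 reads, for counting error only.

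Comparisons used limma (3.58.1, under R 4.3.3) on log2(value + 1), with the 6 samples compared (12 for the difference of changes) and genes with at least 10 in at least 3 samples. The procedure was tested on simulated data. edgeR 4.0.16, DESeq2 1.42.0, other scalings, pseudocounts, filters and thresholds, 1 model for all samples, a replicate block and leaving out each sample were alternatives. The Pdcd1 bound without tumor 321 was added after seeing the data. Figures and summaries used Python 3.11.15.

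All 10 genes are named. Other genes are named where called with the largest changes of a list (at most 4 per list and comparison, mean of at least 50 in a group), as markers, or as the 3 most correlated genes with a mean of at least 50. Stat3, Ifng, Ptpn6, Csf1r, Cd68, Itgam, B2m, C1qb, C1qc, Btla, Cd28, Icos, Cd244a and Cd276 in culture were given beside these, chosen after their values were seen. The same holds for Klrc1, Vtcn1, Ido1 and Tnfrsf9. Members and lists were chosen with earlier results of these data known. Gene positions came from a later GENCODE release of the same build, with 98.9% of identifiers matched. Some items, among them genes and alleles, are not reported here.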

Additional observations from a re-analysis of the deposited data

Results flagged for a closer look

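The change from culture to allograft differed between the 57SCLC and 46LCNEC lines by the interaction test in limma for Pvr (a difference of 6.81 on the log2 scale), Havcr2 (5.05) and Sirpa (2.07). Pvr and Sirpa rose in 57SCLC, Pvr fell and Sirpa rose in 46LCNEC, and Havcr2 rose in 57SCLC and was not called in 46LCNEC. As Pvr and Havcr2 were under 10 in every 57SCLC_cell sample, the sizes of their differences depend on the pseudocount. Every group had 3 samples, too few for a test of single samples that lie far from their group.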

How the results depend on the processing

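Of 763 values recomputed under another test, scaling, pseudocount, filter, threshold or model, 725 kept their direction and call, as did 512 of 564 recomputed without 1 sample. The cause of the changes was not tested. With all 15 samples in 1 model, 5 of the 10 genes were called between the tumors and 5 between 46LCNEC_allo and 46LCNEC_cell (3 each in the main analysis). With edgeR, 1 was called between 46LCNEC_allo and Lung (2 in the main analysis). Over all genes, 3738 calls between 46LCNEC_allo and its culture became 1659 higher and 769 lower without dish C. Leaving out 1 sample gave 2 to 4 calls between the tumors, 1 to 5 between 46LCNEC_allo and its culture (1 without dish A, dish C or tumor 321, and 5 without 319), 1 to 4 between 46LCNEC_allo and Lung (1 without 312, 319 or any Lung sample, and 4 without 321), and 3 to 5 for the difference of changes (5 without 321).

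Some differences that were never called turned sign. For 57SCLC_allo against 46LCNEC_allo, Cd47 was at 0.00069 with edgeR, 0.0060 with DESeq2 and 0.24 with library size alone, and Pdcd1 at -1.26 (edgeR) and -1.23 (DESeq2). Without 1 sample, Cd47 ranged from -0.067 to 0.044, Pdcd1 from -0.82 to 1.83 and Tigit from -1.96 to 0.52. For 46LCNEC_allo against 46LCNEC_cell, Havcr2 was at 0.00059 with edgeR and -0.57 to 0.12 without 1 sample, and Cd274 at -0.054 to 1.25. For 57SCLC_allo against 57SCLC_cell, Cd47 was at -0.017 (library size), -0.12 (upper quartile) and -0.041 to 0.070 without 1 sample. For 46LCNEC_allo against Lung, Havcr2 was at -0.019 with library size and Tigit at 0.85 (edgeR) and 0.81 (DESeq2), and without 1 sample Pdcd1 ranged from -1.37 to 1.28, Havcr2 from -0.39 to 0.30 and Tigit from -1.36 to 1.12. In the difference of changes, Pdcd1 was at -1.27 (edgeR), -0.56 (DESeq2) and -0.82 to 1.83 without 1 sample, and Ctla4 at -1.38, -0.27 and -0.094 to 2.93.

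Set against Ptprc alone in place of the marker genes, tumor minus Lung was 1.46 in 46LCNEC_allo and 2.92 in 57SCLC_allo for Pdcd1 (4.12 and 3.66 against the T cell genes), -1.44 and 1.31 for Ctla4 (1.212 and 2.06), 1.98 and 4.75 for Lag3 (4.64 and 5.49), 1.07 and 1.61 for Tigit (3.72 and 2.36), 1.34 and 0.82 for Havcr2 (3.996 and 1.56), and 1.76 and 1.48 for Sirpa (-1.16 and -1.56 against the macrophage genes).

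Scaled by library size alone, the median over all genes moved to 0.24 between the cultures and 0.28 between the tumors. The letters A, B and C of the cultures did not deviate together between the lines (r = 0.18, -0.19 and 0.00047), and with the letter as a replicate block 4 of the genes were called, as without it. Allografts and Lung carried no shared numbers. Tumor 275 had the fewest reads, and a gene with few reads, such as Pdcd1lg2, is limited by counting error.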
